A study of Homo sapiens with 24 samples.

Results

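The 4 fibroblast growth factor (FGF) receptors, the FGFR3 neighbour TACC3, the ligand FGF2 and the FGF carrier FGFBP1 were followed in 2 human bladder cancer cell lines. The members were the rows of the deposited count table whose symbol was FGFR1, FGFR2, FGFR3, FGFR4, TACC3, FGF2 or FGFBP1. All 7 were found among 35993 gene symbols, of which 27377 had a count in any library. RNA was sequenced in 24 libraries, 3 biological replicates of each of 8 groups. Each of the lines J82 and RT-112 was represented by its parental cells, by a derivative called CD44 Low, with little of the hyaluronan receptor CD44, by a derivative called CD44 High, with much of it, and by a derivative called CD44v6, with much of the splice variant CD44v6. The labels name no treatment, do not say how the derivatives were obtained and do not say whether each is 1 clone, so any effect of selection or cloning cannot be told apart from that of the receptor level. Nothing in the labels beyond the words biological replicates says what separates the replicates, so a p-value measures the spread between these libraries.

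FGFs are secreted proteins that bind receptor tyrosine kinases together with heparan sulphate on the cell surface. The bound receptors pair, phosphorylate each other and, through the adaptor FRS2, switch on the RAS and ERK kinases, which in turn induce the ETS factors ETV4 and ETV5 and brakes such as the phosphatase DUSP6 and the Sprouty proteins. FGFR3 is a well known oncogene of urothelial cancer, activated by mutation or by fusion to TACC3, which lies beside it on the short arm of chromosome 4. RT-112 is known to carry an FGFR3-TACC3 fusion. Counts per gene cannot separate fusion from normal transcripts of FGFR3 or TACC3, nor the splice forms of a receptor.

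FGFR3 and FGFBP1 were the members that differed together between RT-112 derivatives, and TACC3 is the fusion partner of FGFR3, so the 250 bases before the start of each of these genes are shown. They come from RefSeq on GRCh38.p14 and are written 5′ to 3′ along the gene. Capitals mark each GC box (GGGCGG or, on the other strand, CCGCCC), the letters bound by SP1-type factors. The windows are chr4:1793043-1793292 on the + strand for FGFR3, chr4:1720381-1720630 on the + strand for TACC3 and chr4:15938741-15938990 on the - strand for FGFBP1.

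FGFR3: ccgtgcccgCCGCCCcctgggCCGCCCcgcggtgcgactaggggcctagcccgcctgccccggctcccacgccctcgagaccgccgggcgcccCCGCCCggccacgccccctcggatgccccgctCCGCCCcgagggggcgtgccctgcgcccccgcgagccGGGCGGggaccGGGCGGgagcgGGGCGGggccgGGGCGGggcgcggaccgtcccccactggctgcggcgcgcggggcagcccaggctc

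TACC3: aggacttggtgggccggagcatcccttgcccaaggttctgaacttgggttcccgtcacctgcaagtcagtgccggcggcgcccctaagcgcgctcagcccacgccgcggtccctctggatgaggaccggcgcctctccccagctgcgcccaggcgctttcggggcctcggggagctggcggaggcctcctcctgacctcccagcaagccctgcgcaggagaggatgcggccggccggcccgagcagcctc

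FGFBP1: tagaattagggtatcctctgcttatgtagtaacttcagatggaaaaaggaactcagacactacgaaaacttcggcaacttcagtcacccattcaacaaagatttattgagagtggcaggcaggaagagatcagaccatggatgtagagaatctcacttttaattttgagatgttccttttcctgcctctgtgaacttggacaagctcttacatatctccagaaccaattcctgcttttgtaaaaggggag

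The FGFR3 window held 8 GC boxes at 86.8% G and C, that of TACC3 held 0 at 71.6%, and that of FGFBP1 held 0 at 40.8%. Of 35116 RefSeq windows of this length, 42.6% held a GC box on either strand. None of the 3 windows held the TATA box TATAAA (10.7% of all windows), the TEAD motif GGAATG (11.9%) or the AP-1 motif TGANTCA (6.57%) on either strand. The members that moved together in RT-112 thus had windows of very different base composition. These motifs were chosen after the data were seen, and a match is a description of the letters only. Of the 7 members, 6 matched a RefSeq window and FGFR1 did not.

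Library totals ran from 16752825 to 24419670 counts. Levels are given as CPM, counts put on a common library size with TMM factors, with mean ± SD over n = 3 libraries. CD44 itself followed the labels in both lines. In J82 it was at 444 ± 46.4 CPM in parental cells, 279 ± 27.9 in CD44 Low, 727 ± 32.1 in CD44 High and 799 ± 241 in CD44v6. In RT-112 it was at 317 ± 27.2, 141 ± 18.2, 420 ± 70.0 and 448 ± 69.0 CPM. Gene counts do not show which splice variants made up these sums. The 9 urothelial and epithelial markers summed to 6468 to 10637 CPM in J82 and 10366 to 14799 in RT-112, but the J82 sum was nearly all KRT7, KRT8, KRT18 and KRT19. In J82, KRT5 was at 0 in every library, and group means were at most 0.615 CPM for GATA3, 2.30 for EPCAM and 5.71 for CDH1, against at least 36.4, 286 and 307 in RT-112. PPARG had group means of 20.9 to 47.1 CPM in J82 and 172 to 211 in RT-112. Endothelial markers summed to at most 5.57 CPM and leukocyte markers to at most 1.67 in any library.

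The lines expressed different FGF receptors. In parental J82, FGFR1 stood at 161, 161 and 165 CPM and FGFR3 at 4.4, 3.78 and 5.71 CPM. In parental RT-112, FGFR1 stood at 2.61, 2.57 and 3.30 CPM and FGFR3 at 246, 273 and 273 CPM. FGFR2 and FGFR4 had 0 counts in parental J82, where a count of 0 allows up to 3 counts, and FGF2 had 0 counts in parental RT-112.

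No member's parental groups overlapped between the lines, as held for 73.9% of all genes. All 7 were called (adjusted p under 0.05, edgeR's quasi-likelihood test with Benjamini-Hochberg adjustment over 17438 genes), against 62% of all genes. The log2 fold change of RT-112 over J82 was -5.84 (SE 0.26, adjusted p = 2.07e-14) for FGFR1 and 5.83 (adjusted p = 7.01e-16) for FGFR3. FGFBP1 was higher in RT-112 by 7.71 on the log2 scale (SE 0.40, adjusted p = 8.03e-12) and TACC3 by 1.13 (adjusted p = 2.33e-06). Parental J82 had 5, 0 and 6 counts of FGFBP1, so the size of its fold rests on few counts. It ran from 7.23 to 8.26 as single libraries were left out. For genes at 0 in 1 line the fold is a lower bound, taken against 3 counts per library. FGFR2 was at least 251-fold and FGFR4 at least 4.5-fold higher in RT-112, and FGF2 was at least 601-fold higher in J82.

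**Figure D1:**
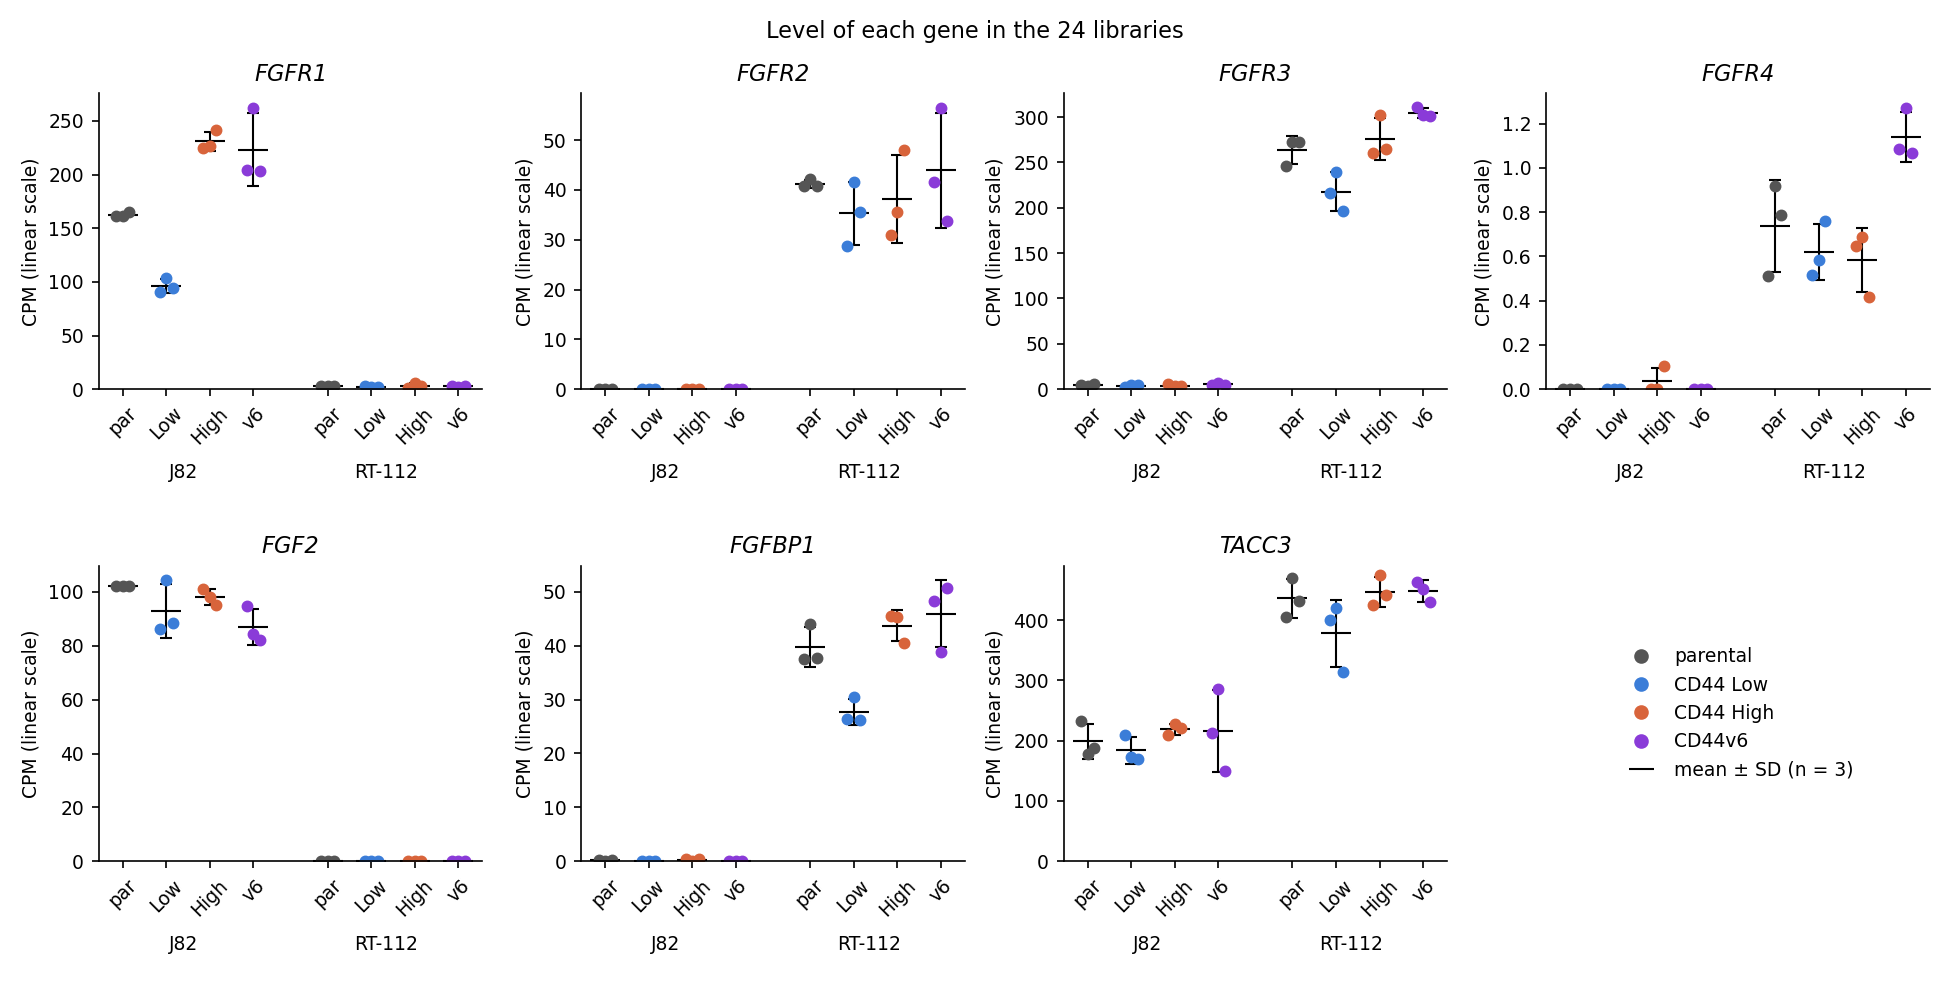
CPM of each member in all 24 libraries, 1 panel per gene. Points are libraries and bars are mean ± SD of the 3 libraries of a group (par, parental). FGFR1 and FGF2 were high in J82, and FGFR2, FGFR3 and FGFBP1 in RT-112.

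Levels of different genes can be compared only per length. Divided by merged exon length, FGFR1 made up 92.5%, 90.4%, 95.3% and 93.6% of the summed receptor signal in J82 parental, CD44 Low, CD44 High and CD44v6 cells, and FGFR3 the remaining 7.50%, 9.56%, 4.65% and 6.36%. In RT-112 FGFR3 made up 90.4%, 90.1%, 91.3% and 91.0%, and FGFR2 9.05%, 9.33%, 8.11% and 8.37%, with FGFR1 at no more than 0.374% and FGFR4 at no more than 0.342%. So each line had 1 main receptor in all 4 states, and the derivatives differed in its amount rather than in which it was. The summed signal in J82 was 12.7 CPM per kb in parental cells, 7.69 in CD44 Low, 17.5 in CD44 High and 17.2 in CD44v6, and in RT-112 60.2, 49.9, 62.3 and 69.1. With the length of the longest coding transcript in place of merged exons, an alternative chosen after the data were seen, FGFR1 made up 95.2% to 97.7% in J82, and in RT-112 FGFR3 85.0% to 86.8% and FGFR2 12.2% to 14%. By that length FGFR1 in parental J82 was at 26.8 CPM per kb, against 11.7 by merged exons. FGFR3 in parental RT-112 was at 59.5, against 54.4. The size of the gap in summed signal between the lines thus depends on the length used.

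**Figure D2:**
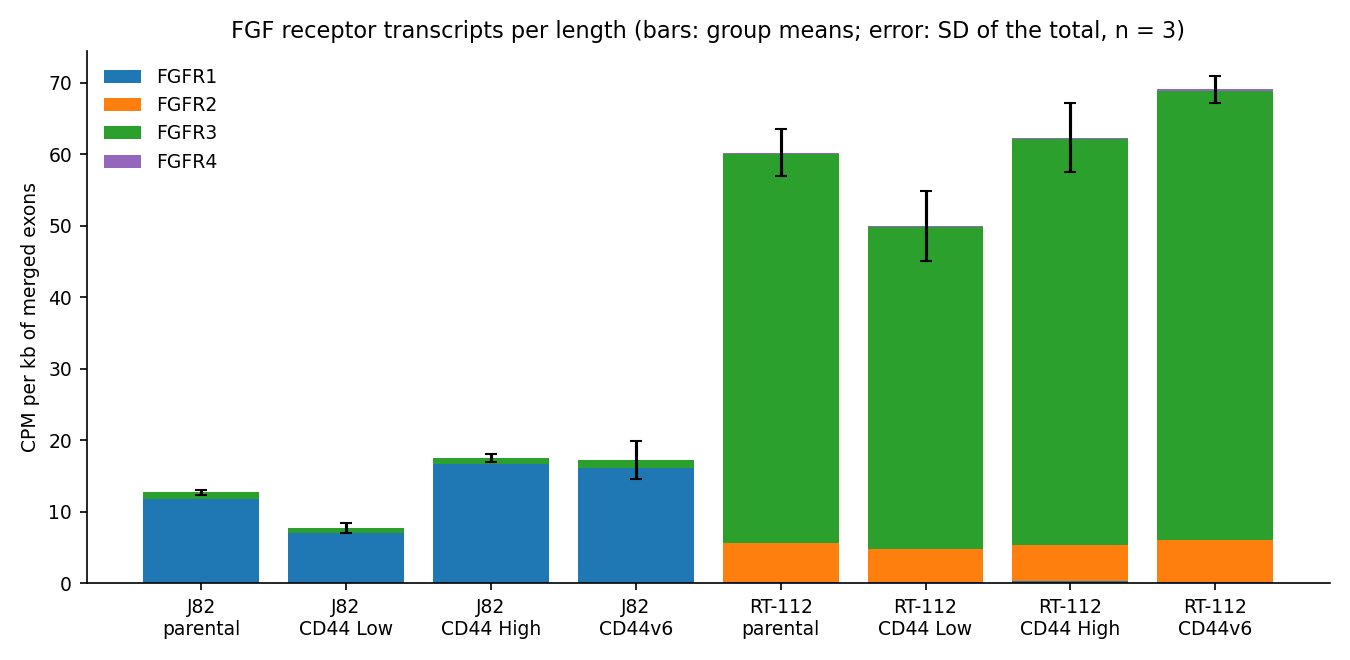
Summed FGF receptor signal per group in CPM per kb of merged exon, stacked by receptor; error bars are the SD of the total over 3 libraries. The J82 bars are nearly all FGFR1, lowest in CD44 Low at 7.69, and the RT-112 bars nearly all FGFR3, lowest in CD44 Low at 49.9.

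FGFR1 was the member that changed in J82. It was lower in CD44 Low cells and higher in CD44 High and CD44v6 cells than in parental cells. The 3 CD44 Low libraries had 90.4, 104 and 94.4 CPM, the CD44 High libraries 225, 227 and 241, and the CD44v6 libraries 204, 262 and 203, around the parental 162 ± 1.96. The CD44v6 libraries lay above the parental libraries and overlapped the CD44 High libraries. Such separation is common with 3 libraries per group, and held for 27.3% of all genes in CD44v6 against parental cells. It is given as a description only.

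Against parental cells, FGFR1 fell by 0.76 on the log2 scale in CD44 Low (log2 fold change -0.76, SE 0.10, adjusted p = 0.000901, edgeR's quasi-likelihood test). It rose by 0.51 in CD44 High (SE 0.10, adjusted p = 0.0163) and by 0.46 in CD44v6 (SE 0.10, adjusted p = 0.0335). Between the derivatives, the log2 fold change was 1.27 in CD44 High over CD44 Low (adjusted p = 3.57e-06) and 1.22 in CD44v6 over CD44 Low (adjusted p = 7.93e-06), the largest fitted changes of the tested members within a line. CD44v6 over CD44 High gave -0.05 (adjusted p = 0.879). In each of the other 5 comparisons FGFR1 was the 1 member called of 4 tested. The share of all 15951 genes called was 5.34% in CD44 Low against parental, 2.94% in CD44 High against parental, 2.6% in CD44v6 against parental, 15.7% in CD44 High against CD44 Low and 9.58% in CD44v6 against CD44 Low. In CD44v6 against CD44 High, edgeR called 0 members and 0% of all genes; 0 members had an unadjusted p under 0.05, and DESeq2 called 0.

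The calls of both gains over parental cells depended on single libraries. The call in CD44 High was lost without any 1 of the parental libraries or CD44 High replicate 2 or 3 (adjusted p 0.0458 to 0.0897 over the 6 fits). That in CD44v6 was lost without any 1 of the parental libraries or CD44v6 replicate 2 (0.0203 to 0.164). Proliferation genes moved in some of the comparisons where FGFR1 did, with 6 of 10 falling in CD44 Low against parental cells, 8 of 10 rising in CD44 High over CD44 Low, and 3 of 10 rising in CD44v6 over CD44 Low. In the same order, 3.08% of all genes fell, 8.83% rose and 6.18% rose. Where FGFR1 rose over parental cells, edgeR and DESeq2 called 0 of 10 both in CD44 High (median log2 fold change 0.16, 1 with an unadjusted p under 0.05) and in CD44v6 (median -0.19, 3 with an unadjusted p under 0.05). The count of 6 was 2 without any 1 parental library or CD44 Low replicate 2, and 3 without CD44 Low replicate 1. The summed level of the 5 fibroblast markers was highest in CD44 Low. It was 59.3 to 69.2 CPM in parental, 104 to 148 in CD44 Low, 49.1 to 57.0 in CD44 High and 40.6 to 72.7 in CD44v6 cells. COL1A2, PDGFRB and LUM, 3 of the 4 fibroblast markers tested, fell in CD44 High against CD44 Low, where 6.9% of all genes fell. The PDGFRB call held in 2 of 6 fits without 1 library. The part of the proliferation genes and fibroblast markers in the FGFR1 result was not tested. In bulk RNA, fewer cells of a type and less RNA per cell cannot be told apart.

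**Figure D3:**
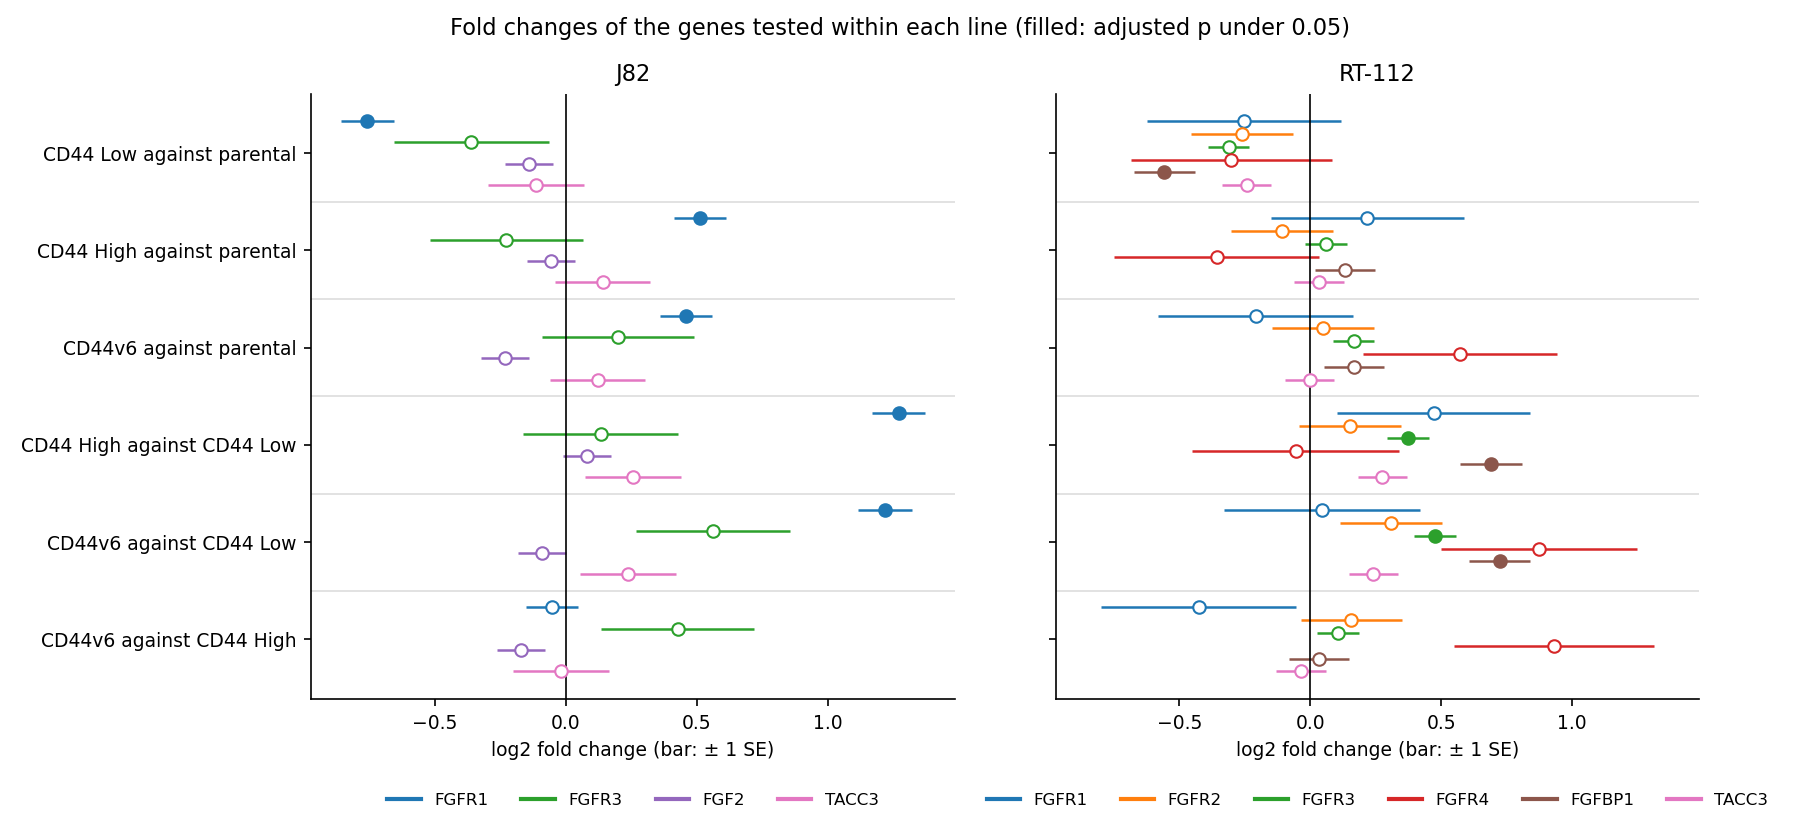
Log2 fold change of each tested member in each within-line comparison; bars are ± 1 SE and filled points have an adjusted p under 0.05. In J82 FGFR1 is filled in 5 of 6 comparisons; in RT-112 FGFBP1 is filled in 3 and FGFR3 in 2.

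FGFR1, like CD44, was lowest in J82 CD44 Low, next in parental cells and higher in both other derivatives. The groups form separate sets of points, so no correlation over all 12 libraries is given. Within groups, after each group's mean was taken off, the Pearson r of log2 CPM between FGFR1 and CD44 was 0.687 over 12 libraries, and it was -0.245 without CD44v6 replicate 2, the library with the most of both. The relation within groups rests on that library. The comparison was chosen after the data were seen, and the points share library size and scaling.

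The other J82 members were not called. FGFR3 had 40 to 123 counts per library, at 3.61 ± 1.2 CPM in CD44 Low, 3.94 ± 1.17 in CD44 High and 5.32 ± 0.978 in CD44v6, and its adjusted p was 0.282 or more in all 6 comparisons. Its CD44v6 libraries (4.56, 6.42 and 4.99 CPM) lay above the CD44 Low libraries (2.23, 4.32 and 4.29), without a call (log2 fold change 0.56, SE 0.29); 23.4% of all genes had groups that did not overlap there. FGFR2 and FGFR4 had 0 counts in every J82 library but CD44 High replicate 3, which had 2 counts of each.

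In RT-112 the receptor that changed was FGFR3. It stood at 264 ± 15.4 CPM in parental cells. The CD44 Low libraries had 217, 240 and 197 CPM, the CD44 High libraries 260, 302 and 265, and the CD44v6 libraries 311, 302 and 301. Every CD44 Low library lay below every other RT-112 library, and CD44v6 lay above the parental libraries and overlapped CD44 High. Of all genes, 30.4% did not overlap in CD44 High against CD44 Low, 37.1% in CD44v6 against CD44 Low and 26.9% in CD44v6 against parental cells.

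Over CD44 Low, FGFR3 was higher in CD44 High by 0.37 on the log2 scale (SE 0.08, adjusted p = 0.0083, edgeR's quasi-likelihood test) and in CD44v6 by 0.48 (SE 0.08, adjusted p = 0.00257). FGFR3 thus set CD44 Low apart from both other derivatives. Against parental cells it was not called: -0.31 in CD44 Low (SE 0.08, adjusted p = 0.054; groups did not overlap for 27.2% of all genes), 0.06 in CD44 High (adjusted p = 0.808) and 0.17 in CD44v6 (adjusted p = 0.349). The CD44 Low value crossed the threshold with DESeq2 (adjusted p = 0.0111) and when only the 2 groups compared were fitted (0.0384), and the call in CD44 High over CD44 Low was lost in the fit of only those 2 groups (0.0672).

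The other receptors of RT-112 were not called in any comparison. FGFR2, whose splice forms bind different FGFs, was at 41.2 ± 0.864 CPM in parental, 35.3 ± 6.40 in CD44 Low, 38.2 ± 8.83 in CD44 High and 44.0 ± 11.6 in CD44v6 cells, and all groups overlapped. FGFR1 was near the lower end of what these libraries measure, with 25 to 95 counts and 1.47 to 5.46 CPM. FGFR4 had 9 to 24 counts: 0.510, 0.918 and 0.789 CPM in parental, 0.515, 0.585 and 0.759 in CD44 Low, 0.646, 0.689 and 0.418 in CD44 High, and 1.09, 1.27 and 1.07 in CD44v6. The 3 CD44v6 libraries held the highest FGFR4 values of the line, but no test passed: over CD44 High the log2 fold change was 0.93 (SE 0.38, unadjusted p = 0.0302, adjusted p = 1), over CD44 Low 0.87 (adjusted p = 0.131) and over parental cells 0.57 (adjusted p = 0.508). Groups that do not overlap were common among all genes, 7.54% in CD44v6 against CD44 High, 37.1% against CD44 Low and 26.9% against parental cells.

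FGF2, a ligand of FGFR1 that also binds other receptors, was made by J82. It was at 102, 102 and 102 CPM in parental, 86.0, 105 and 88.4 in CD44 Low, 101, 97.9 and 95.0 in CD44 High and 94.6, 84.3 and 82 in CD44v6 cells. The CD44v6 libraries lay below the parental and the CD44 High ones, against parental cells by -0.23 on the log2 scale (unadjusted p = 0.0259, adjusted p = 0.194), which did not pass. Groups did not overlap for 27.3% of all genes in CD44v6 against parental cells and for 12.1% in CD44v6 against CD44 High. While FGFR1 ranged over the groups from 96.2 ± 6.87 to 231 ± 8.92 CPM, FGF2 ranged from 87.0 ± 6.73 to 102 ± 0.114. RT-112 had 0 counts of FGF2 in every library except CD44 High replicates 1 and 3, with 3 each. Of the FGF2 exon length, 11.9% is shared with NUDT6 on the other strand (GENCODE 29), and since no source used here says whether counting used strand, reads there cannot be assigned to either gene. FGFR1 shares 1.0% with LETM2 and 1.1% with AC087623.1.

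FGFBP1, a secreted protein that frees FGFs such as FGF2 from heparan sulphate in the matrix, was found in RT-112. The parental libraries had 37.5, 44.1 and 37.8 CPM, CD44 Low 26.5, 30.4 and 26.2, CD44 High 45.4, 45.3 and 40.4, and CD44v6 48.3, 38.8 and 50.7. CD44 Low again lay below all other groups, which overlapped one another. Groups did not overlap for 27.2% of all genes in CD44 Low against parental cells. The share was 30.4% in CD44 High and 37.1% in CD44v6 against CD44 Low. In J82 FGFBP1 had 0 to 11 counts per library and was not tested within the line.

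FGFBP1 fell in CD44 Low against parental cells (log2 fold change -0.56, SE 0.12, adjusted p = 0.022, edgeR's quasi-likelihood test). It was higher than in CD44 Low by 0.69 in CD44 High (SE 0.12, adjusted p = 0.00247) and by 0.72 in CD44v6 (SE 0.12, adjusted p = 0.0021). The loss against parental cells did not hold in every fit: with the replicate number as a block the adjusted p was 0.0531, and it was also above 0.05 without any 1 of the parental libraries or CD44 Low replicate 1 (0.0445 to 0.123 over the 6 fits). FGFBP1 and FGFR3 were the 2 members called, of 6 tested, in CD44 High against CD44 Low and in CD44v6 against CD44 Low, where 16% and 16% of 15645 genes were called. In CD44 Low against parental FGFBP1 was the 1 member called, against 3.2% of genes. No member was called in CD44 High against parental (0.511% of genes), CD44v6 against parental (0.614%) or CD44v6 against CD44 High (0%); DESeq2 called 0 members in each, and 0, 0 and 1 members, the last FGFR4, had an unadjusted p under 0.05.

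Of all genes in RT-112, 9.01% rose in CD44 High and 7.97% in CD44v6 against CD44 Low, and 1.87% fell in CD44 Low against parental cells. Among the 10 proliferation genes, 6 rose in CD44 High and 6 in CD44v6 against CD44 Low, and 3 fell in CD44 Low against parental cells. The count in CD44v6 was 4 without CD44 Low replicate 2 or CD44v6 replicate 1, and that in CD44 Low was 1 or 2 without any 1 library but CD44 Low replicate 3, where it stayed at 3. Against parental cells edgeR called 0 in CD44 High and 0 in CD44v6, where 3 and 4 had an unadjusted p under 0.05 and DESeq2 called 2 and 2. The summed fibroblast markers of the line, 120 to 272 CPM per library, were nearly all LUM, with DCN and PDGFRB at 0 in every library, COL1A2 at 2 counts in 1 library and COL1A1 at no more than 4.75 CPM. LUM fell in CD44 High against CD44 Low (log2 fold change -0.69, adjusted p = 0.0191). Their part in the FGFR3 and FGFBP1 results was not tested.

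TACC3, a mitotic spindle protein that aurora A kinase places on microtubules, was expressed in both lines. In J82 it was at 199 ± 29 CPM in parental, 184 ± 22.1 in CD44 Low, 219 ± 8.91 in CD44 High and 216 ± 67.7 in CD44v6 cells, whose replicates had 213, 286 and 150. In RT-112 the parental libraries had 405, 470 and 432 CPM, CD44 Low 400, 419 and 314, CD44 High 425, 474 and 441, and CD44v6 464, 451 and 429. All J82 groups overlapped, and in RT-112 CD44 Low lay below CD44 High and CD44v6 but overlapped parental cells.

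No TACC3 comparison within a line passed. The nearest in RT-112 were CD44 High over CD44 Low at 0.28 on the log2 scale (SE 0.09, adjusted p = 0.0646) and CD44v6 over CD44 Low at 0.24 (SE 0.09, adjusted p = 0.0997), edgeR's quasi-likelihood test. The first was called without CD44 Low replicate 2 (log2 fold change 0.35, adjusted p = 0.0482). Of all genes in these comparisons, 30.4% and 37.1% had groups that did not overlap.

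FGFR3 and TACC3 varied together from library to library in RT-112, while no such relation was seen in J82; the difference between the lines was not tested. Over the 12 RT-112 libraries Pearson's r of log2 CPM was 0.862 and Spearman's rho 0.874. Without the 2 libraries farthest from the median of TACC3, r was 0.769, and within groups it was 0.868, from 0.812 without CD44 Low replicate 2 to 0.914 as single libraries were left out. In J82, where FGFR3 was low, r was 0.0432 and rho 0.00699, with -0.268 without the 2 farthest libraries and -0.0717 within groups. By their correlation within groups, TACC3 ranked 84 among 9845 genes for FGFR3 in RT-112. The 6 other genes of the same chromosome band had lower values for FGFR3 there, NSD2 at 0.792 (rank 272), SLBP at 0.788 (283), LETM1 at 0.708 (635), NELFA at 0.493 (2130), TMEM129 at 0.45 (2506) and FAM53A at 0.29 (3794). For TACC3 in RT-112 the same 6 genes ran from 0.3 for TMEM129 to 0.756 for NSD2. In J82 TACC3 correlated within groups with NSD2 at 0.885 (rank 229 among 9847 genes). The other neighbours there ran from -0.775 for SLBP to 0.549 for LETM1. High values at this locus were thus not limited to the pair FGFR3 and TACC3, nor to RT-112. These relations were chosen after the data were seen, share library size and scaling, and are given with no p.

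For FGFR3, FGFBP1 and CD44 in RT-112 the CD44 Low libraries form a set of their own in CD44 and FGFBP1, so only correlations within groups are given. Pearson's r over 12 libraries was 0.452 between FGFR3 and FGFBP1, -0.202 between FGFR3 and CD44 and -0.0446 between FGFBP1 and CD44. Both genes were lowest in the group with the least CD44, and within groups neither rose with it.

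**Figure D4:**
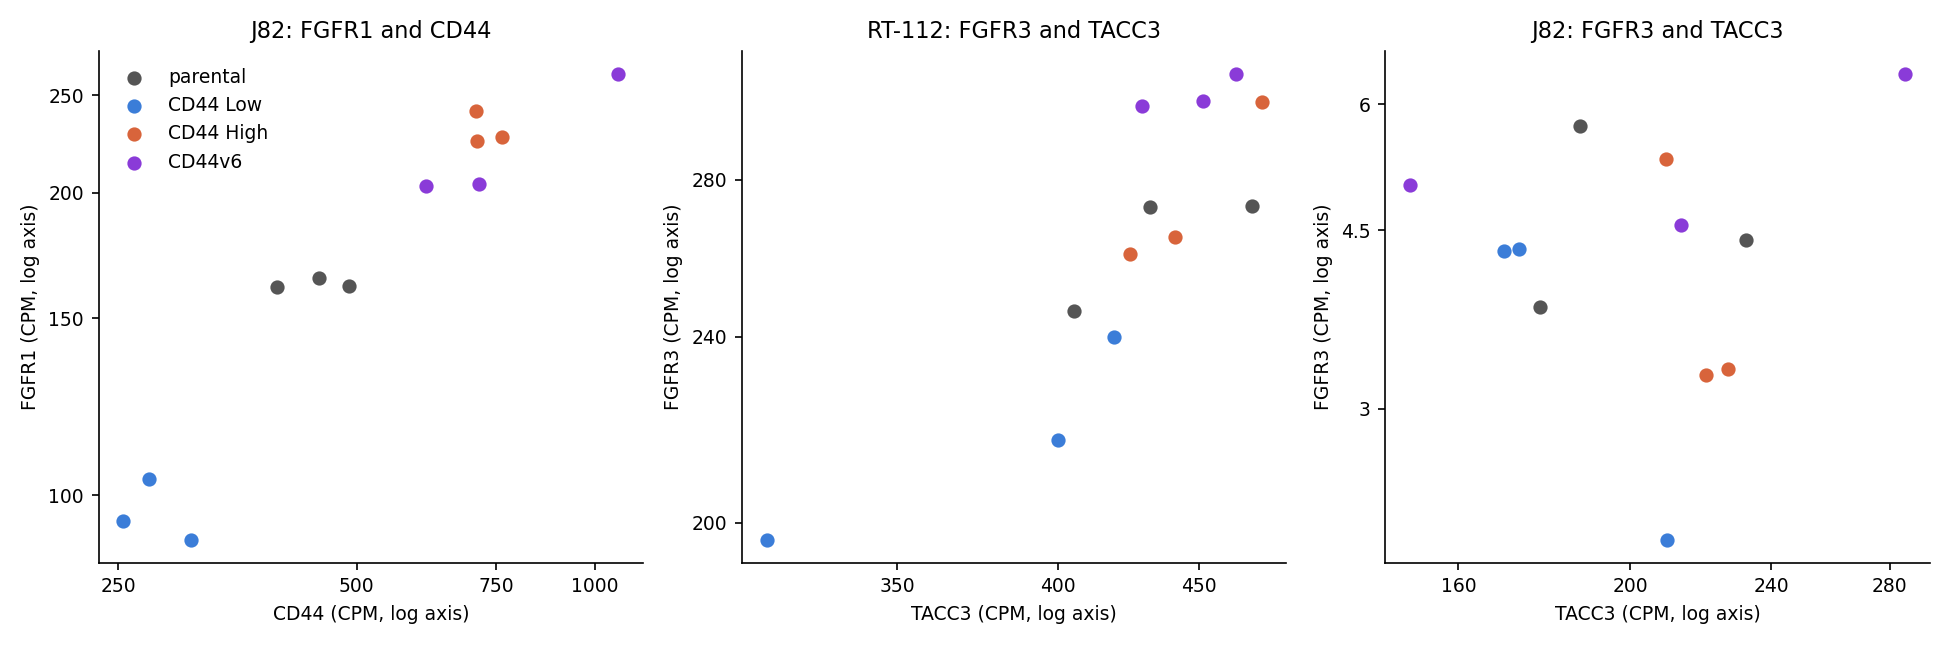
Pairs of genes by library, CPM on log axes, coloured by group: FGFR1 and CD44 in J82, FGFR3 and TACC3 in RT-112, and FGFR3 and TACC3 in J82. The J82 FGFR1 points fall into group sets from 90.4 CPM in CD44 Low to 262 in CD44v6, and FGFR3 and TACC3 form a rising cloud in RT-112 only.

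The 6 genes around TACC3 and FGFR3, FAM53A, SLBP, TMEM129, LETM1, NSD2 and NELFA, gave a view of the locus beyond the fusion partners. In CD44 High against CD44 Low, edgeR called 0 of 6 in either line. Of all genes it called 15.7% in J82 and 16% in RT-112, so among 6 genes a count of 0 is near that share. An unadjusted p under 0.05 was found for 1 in J82 and 3 in RT-112, and DESeq2 called 0 in J82 and 2, both lower, in RT-112. Their median log2 fold change was 0.01 in J82 and -0.12 in RT-112, beside -0.02 and 0.02 over all genes tested. FGFR3 was higher in RT-112 CD44 High cells by 0.37, beside the median of -0.12 for its neighbours. Whether FGFR3 differed from its neighbours was not tested.

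A difference between the lines was tested for each member as an interaction over all 24 libraries, J82 minus RT-112. In CD44 High against CD44 Low FGFR1 differed by 0.82 (SE 0.35, adjusted p = 0.144), so its change is not shown to be limited to J82; without RT-112 CD44 High replicate 2, the library with 5.46 CPM, it was 1.35 (adjusted p = 0.00572). For FGFR3 the difference was -0.21 and for TACC3 0.01, neither called. FGF2 was the 1 member of 7 called there (10.7% of genes), on 3 and 3 counts in RT-112. In the 3 comparisons with parental cells edgeR called 0 of 7 members (1.06% of genes in CD44 Low, 0.241% in CD44 High and 0.138% in CD44v6). In each, 1 member had an unadjusted p under 0.05. DESeq2 called 0, 0 and 1, the last FGFBP1 with at most 11 counts in J82. In CD44 Low and CD44v6 against parental cells, FGFR2 and FGFR4 had 0 counts in both J82 groups, and FGF2 in both RT-112 groups. Their differences could not be estimated there (SE 170 to 1602), so these members could not have been called.

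Among targets and brakes of FGF and ERK signalling, a list of 9 genes, 4 rose and 1 fell in CD44 High against CD44 Low in each line. Of all genes, 8.83% rose and 6.9% fell in J82, and 9.01% rose and 7.02% fell in RT-112. The list's median log2 fold change was 0.94 in J82 and 0.39 in RT-112, beside -0.02 and 0.02 over all genes. The same 4 genes rose in both lines: DUSP6, SPRY4, ETV4 and ETV5. These genes also answer to other receptors that act through ERK.

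DUSP6 CPM in J82 was 7.29, 8.37 and 11.1 in CD44 Low and 28.0, 27.5 and 18.5 in CD44 High, and in RT-112 it was 39.3, 45.7 and 38.3 in CD44 Low and 83.4, 85.4 and 85.9 in CD44 High. The groups did not overlap in either line, as held for 30.4% of all genes in RT-112. The J82 share is not given here. Its log2 fold change was 1.47 in J82 (SE 0.19, adjusted p = 0.000176) and 1.08 in RT-112 (SE 0.10, adjusted p = 8.62e-05). SPRY4 rose by 2.18 (SE 0.43, adjusted p = 0.00437) and 0.88 (SE 0.22, adjusted p = 0.0179), ETV4 by 1.07 (SE 0.17, adjusted p = 0.000834) and 0.46 (SE 0.10, adjusted p = 0.00697), and ETV5 by 1.14 (SE 0.10, adjusted p = 1.12e-05) and 0.51 (SE 0.12, adjusted p = 0.0127). The gene that fell was SPRY1 in J82 (-1.84, adjusted p = 0.0397) and IL17RD in RT-112 (-1.28, adjusted p = 0.0491); each call was lost in most fits without 1 library, held in 2 and 1 of 6. The count that rose stayed at 4 in J82 when libraries were left out and ran from 2, without RT-112 CD44 High replicate 1, to 5 in RT-112.

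In CD44v6 against CD44 Low, 4 feedback genes rose and 0 fell in J82, and 5 rose and 0 fell in RT-112, where 6.18% and 7.97% of all genes rose. The J82 count was 4 in every fit without 1 library, while that of RT-112 was 1 without CD44 Low replicate 2 or CD44v6 replicate 3, 2 without CD44 Low replicate 1 or 3 or CD44v6 replicate 2, and 3 without CD44v6 replicate 1, with no filter and with the replicate block. DUSP6 was called in 6 of 6 such fits in both lines.

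Against parental cells the feedback genes mainly rose in J82 CD44 High, where 4 rose and 0 fell with a median log2 fold change of 0.42. Of all genes, 2.94% were called there in either direction. DUSP6 rose there by 1.65 (SE 0.19, adjusted p = 0.000826) in 6 of 6 fits without 1 library. SPRY4 at 1.69 (adjusted p = 0.048), ETV4 at 0.72 (adjusted p = 0.0329) and ETV5 at 0.49 (adjusted p = 0.0195) were called in 1, 1 and 0 of these fits, so the count was 1 without any 1 parental library or CD44 High replicate 2, 2 without CD44 High replicate 1 or 3, and 2 with no filter. In J82 CD44v6, 2 rose and 0 fell, SPRY4 by 2.04 (adjusted p = 0.0267) and DUSP6 by 1.14 (adjusted p = 0.011); the count was 0 without parental replicate 1 or 2, 1 without parental replicate 3 or CD44v6 replicate 2, 3 without CD44v6 replicate 3, and 4 with DESeq2. In RT-112 DUSP6 was the 1 gene that rose, by 0.66 in CD44 High (adjusted p = 0.0117, lost without parental replicate 1 or 2 or CD44 High replicate 1) and by 0.88 in CD44v6 (adjusted p = 0.00147, in 6 of 6 fits). The shares of all genes called in either direction were 2.6% in J82 CD44v6, 0.511% in RT-112 CD44 High and 0.614% in RT-112 CD44v6. In CD44 Low against parental cells, 0 rose and 1 fell in each line (3.08% and 1.87% of all genes fell): ETV5 in J82 (-0.64, adjusted p = 0.00317) and DUSP6 in RT-112 (-0.43, adjusted p = 0.0416), the latter called in 0 of 6 fits without 1 library.

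**Figure D5:**
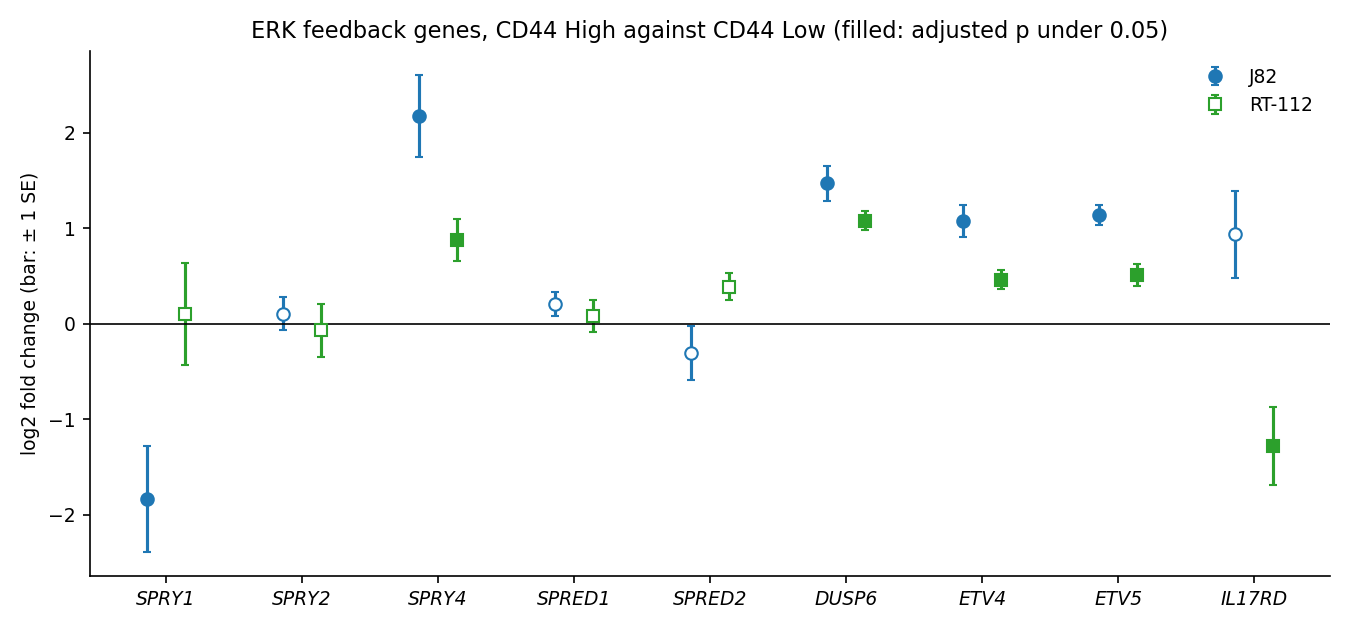
Log2 fold change of the 9 ERK feedback genes in CD44 High against CD44 Low in J82 and RT-112; bars are ± 1 SE and filled points have an adjusted p under 0.05. SPRY4, DUSP6, ETV4 and ETV5 are filled and above 0 in both lines.

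Other parts of the pathway moved less evenly. Of 17 FGF ligands besides FGF2, only 2 in J82 and 1 in RT-112 had enough counts to test. FGF1, which binds all FGF receptors, rose in CD44 High against CD44 Low in both, by 0.77 (J82, adjusted p = 0.0182) and 1.27 (RT-112, adjusted p = 0.0355), calls that held in 3 and 2 of 6 fits without 1 library. Of the co-receptors and carriers, 3 rose and 1 fell of 9 tested in J82, and 2 rose and 1 fell of 10 in RT-112. Of all genes, 8.83% rose and 6.9% fell in J82, and 9.01% rose and 7.02% fell in RT-112. The J82 count of 3 was 1 without CD44 Low replicate 2 or CD44 High replicate 2, and in RT-112 the count of 2 was 1 without CD44 High replicate 1 or 2. The heparan sulphate proteoglycan SDC3 rose in both (0.58, adjusted p = 0.0451, held in 1 of 6 fits, and 0.76, adjusted p = 0.00309), while SDC1 rose in J82 (0.71) and fell in RT-112 (-0.37). SDC2 fell in J82 (-0.65), and the decoy receptor FGFRL1 rose in RT-112 (0.40). Of 9 receptor adaptors, 1 fell in J82, FRS2 itself at -0.37 (adjusted p = 0.029, held in 1 of 6 fits), and edgeR called 0 in RT-112, where 4 had an unadjusted p under 0.05 and DESeq2 called 1. The adaptor counts are near the shares of all genes.

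Among the TACC family and partners of TACC3, 2 of 6 rose in J82 and 4 of 6 in RT-112 in CD44 High against CD44 Low, with 0 lower and medians of 0.21 and 0.58; the J82 count was 1 without CD44 Low replicate 1 or 2 or CD44 High replicate 1 or 3. AURKA, the kinase that phosphorylates TACC3, rose by 0.75 (SE 0.17, adjusted p = 0.0111) and 0.87 (SE 0.13, adjusted p = 0.00126), and the microtubule protein GTSE1 by 0.49 (adjusted p = 0.0338) and 0.81 (adjusted p = 0.000365). Of all genes, 8.83% rose in J82 and 9.01% in RT-112. TACC3 itself was not called in either line. The proliferation genes, 8 and 6 of 10 higher and 0 lower with medians of 0.56 and 0.54, moved the same way. In RT-112 the count was 4 without CD44 Low replicate 2 and 9 without CD44 High replicate 2. CDK1, the mitotic kinase, rose by 1.19 (adjusted p = 9.14e-05) and 0.82 (adjusted p = 0.00399).

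The genes whose levels were most like a member's were taken by Pearson's r of log2 CPM over the 12 libraries of a line, a description in which shared group differences count. For FGFR1 in J82, among 9846 genes, they were CDCP1 (0.989), EPHB2 (0.989) and ETS1 (0.985). For FGFR3 in RT-112 they were KMT5A (0.96), KIF22 (0.95) and ANKRD1 (0.948), and for FGFBP1 ARHGEF17 (0.979), CAPZB (0.972) and H2BC6 (0.97). TACC3 in RT-112 was most like KIF22 (0.9), a mitotic kinesin also among the first 3 for FGFR3, HEY1 (0.879) and CKAP4 (0.879), and in J82 most like LOXL2 (0.921), SEC24B (0.888) and RCOR1 (0.879).

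The partners of the remaining members were taken in the same way. For FGF2 in J82 they were EIF4BP6 (0.94), RPL27AP6 (0.911) and RPL7P32 (0.906), all pseudogenes whose reads may belong to their parent genes. FGFR3 in J82 was most like AP4M1 (0.853), RAD1 (0.809) and RMND5B (0.809). In RT-112, FGFR2 was most like DTNB (0.913), CCN1 (0.891) and KCNJ15 (0.883), and FGFR1 most like ANTKMT (0.878), CARD8 (0.863) and CARS2 (0.847). Ranked by Spearman's rho instead, 2 of the first 3 stayed for FGFR3 in J82 and for FGFR1 and FGFBP1 in RT-112, 1 for FGFR1 and TACC3 in J82, and 0 for FGF2 in J82 and for FGFR2, FGFR3 and TACC3 in RT-112.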

How the data were processed

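The libraries were made from column-purified total RNA and sequenced commercially, per the labels' protocols. Counts were deposited by the authors as whole numbers per gene symbol, not normalized, in 1 table for 24 libraries; 0 columns and 0 lines were left unmatched. The submitters' processing notes name HISAT2, StringTie and GRCh37 without saying what each was used for; the annotation and the strand setting are not given in the sources used here. At 16752825 to 24419670 counts per library, counting error weighs most on members with few counts; floors of 3 counts cover counting error only.

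Tests used edgeR 4.0.16 in R 4.3.3: filterByExpr, TMM scaling and quasi-likelihood F-tests (glmQLFit, glmQLFTest) with group as the only term, fitted per line on 12 libraries (15951 genes in J82, 15645 in RT-112) and, for the parental lines and the differences between lines, on 24 libraries (17438 genes). P-values are two-sided and adjusted with the Benjamini-Hochberg method over all genes tested; a gene is called under 0.05. There were 17 comparisons. Levels, as CPM, and log2 values were computed from the counts. Alternatives were DESeq2 1.42.0, other scalings, no filter, a prior count of 0.5, only the 2 groups compared, a replicate block and each library left out; the tests were checked on simulated data. Exon lengths and overlaps came from GENCODE 29 on another build than the files, so no coordinates beyond the RefSeq windows are given. Replicate pairs differed by more than sampling noise, with a chi-square per degree of freedom of 6.42 to 63.7 over 24 pairs. Figures used Python 3.11.15 and matplotlib 3.10.9.

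The members and all lists (11 lists, 93 genes: FGF ligands, co-receptors and carriers, receptor adaptors, FGF and ERK feedback genes, TACC family and partners, 4p16.3 neighbours, proliferation genes, and epithelial, fibroblast, endothelial and leukocyte markers) were chosen with earlier results of these data known. Genes were named by rule: the members; list genes called with 1 sign in both lines in CD44 High against CD44 Low or CD44 Low against parental; per list and line, the 2 called genes with the largest change in CD44 High against CD44 Low; the 4p16.3 genes; and the 3 genes most like a member with a mean log2 CPM of at least 1, among genes of at least 3. Not every gene the rule takes is printed. Running the alternatives on list counts and list genes was decided after the data were seen.

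The labels do not say that replicate numbers mark a shared batch. Same-numbered libraries deviated together, with every correlation over 0.1, in 1 of 12 within-line comparisons, J82 CD44v6 against CD44 High. The values were 0.113, 0.109 and 0.252 over the genes of that fit. Over the 24-library genes they were 0.0968, 0.102 and 0.228, which would not pass. The first set was adopted after the second had been seen. This rule asks for all 3 pairs, and single pairs also stood out elsewhere. In J82, replicate 3 was at 0.378 in CD44v6 against CD44 Low and at 0.23 in CD44 High against CD44 Low. In RT-112 it was at -0.305 in CD44v6 against CD44 High. Sharing between replicate 3 of the J82 derivatives was thus not limited to 1 comparison.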

Additional observations from a re-analysis of the deposited data

Results flagged for a closer look

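The change of FGF2 between CD44 High and CD44 Low cells differed between the lines by -4.08 on the log2 scale (J82 minus RT-112, SE 1.12, adjusted p = 0.0348, edgeR's interaction test). J82 FGF2 was at 98.0 ± 2.95 CPM in CD44 High and 93.0 ± 10.0 in CD44 Low (n = 3 each). RT-112 had 3, 0 and 3 counts in CD44 High and 0 in every CD44 Low library, so the difference rests on 6 counts and its size depends on the prior count, being -2.31 with a prior count of 0.5. The call held in 7 of 12 fits without 1 library. It was lost without any 1 of the RT-112 CD44 Low libraries, without RT-112 CD44 High replicate 1 or 3, and with no filter on low counts (adjusted p = 0.057). Its cause was not tested.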

How the results depend on the processing

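Of 95 member results, 18 were called. The 95 include the differences between the lines of FGFR2, FGFR4 and FGF2 that could not be estimated. With a prior count of 0.5 and with either other scaling no call changed. The number of members called moved in these settings: J82 CD44v6 against parental to 0 with no filter and to 0 with only the 2 groups compared; RT-112 CD44 Low against parental to 2 with DESeq2, 0 with the replicate block and 2 with only the 2 groups; CD44 High over CD44 Low in RT-112 to 1 with only the 2 groups; and the difference between the lines to 1 with DESeq2 in CD44v6 against parental, and in CD44 High against CD44 Low to 0 with no filter, 2 with DESeq2 and 2 with the replicate block, the added gene being FGFBP1 (adjusted p = 0.00884 and 0.00945). The replicate block changed no other call, those of J82 CD44v6 against CD44 High included. Leaving out single libraries gave 0 to 1 members in J82 CD44 High and CD44v6 against parental and in RT-112 CD44 Low against parental, 2 to 3 in CD44 High over CD44 Low in RT-112 (3 without CD44 Low replicate 2, with TACC3 added), and 0 to 2 in the difference in CD44 High against CD44 Low. The cause of these moves was not tested.

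Changes of sign were found only among values that no fit called. TACC3 in RT-112 CD44v6 against parental turned to 0.00755 with median-of-ratios scaling, 0.0209 with upper-quartile scaling and 0.00754 with DESeq2. In the difference in CD44v6 against parental, FGFR2 turned to 0.0512 with DESeq2, and FGFR3 to 0.0269 with median-of-ratios scaling, 0.0377 with no filter and 0.0272 with DESeq2. With 0 counts in both J82 groups, the FGFR2 difference could not be estimated there, so its sign has no meaning.

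As single libraries were left out, these log2 values crossed 0. Among them, the FGFR2 difference between the lines in CD44v6 over parental could not be estimated, with 0 counts in both J82 groups. In J82 the ranges were TACC3 -0.23 to 0.00756 for CD44 Low over parental; TACC3 -0.13 to 0.33 for CD44v6 over parental; FGFR3 -0.14 to 0.28 for CD44 High over CD44 Low; TACC3 -0.00391 to 0.45 for CD44v6 over CD44 Low; FGFR1 -0.18 to 0.0189 and TACC3 -0.26 to 0.19 for CD44v6 over CD44 High. In RT-112 the ranges were FGFR1 -0.32 to 0.56, FGFR2 -0.32 to 0.00438, FGFR3 -0.00239 to 0.0851 and TACC3 -0.0167 to 0.0685 for CD44 High over parental; FGFR2 -0.17 to 0.21 and TACC3 -0.0294 to 0.0562 for CD44v6 over parental; FGFR1 -0.0615 to 0.81, FGFR2 -0.059 to 0.28 and FGFR4 -0.19 to 0.14 for CD44 High over CD44 Low; FGFR1 -0.16 to 0.27 for CD44v6 over CD44 Low; FGFR1 -0.75 to 0.12, FGFR2 -0.0603 to 0.37, TACC3 -0.0583 to 0.0154 and FGFBP1 -0.0296 to 0.14 for CD44v6 over CD44 High. In the difference between the lines the ranges were FGFR3 -0.23 to 0.18 and TACC3 -0.0256 to 0.22 for CD44 Low over parental; FGFR1 -0.0509 to 0.81 and FGFBP1 -0.18 to 1.08 for CD44 High over parental; FGFR2 -0.25 to 0.13, FGFR3 -0.0903 to 0.16 and TACC3 -0.0987 to 0.32 for CD44v6 over parental; FGFR2 -0.12 to 3.04 and TACC3 -0.0378 to 0.14 for CD44 High over CD44 Low.

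FGFR4 had 9 to 24 counts and FGFR1 25 to 95 counts per RT-112 library, and FGFR3 had 40 to 123 per J82 library, so their log2 values carry wider standard errors than those of the abundant members. Gene counts do not separate fusion from normal transcripts.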
